A study of Mus musculus with 6 samples.

Results

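The immunity-related GTPases (IRG proteins) of the mouse were followed through 9 gene symbols, Irgm1, Irgm2, Igtp, Iigp1, Ifi47, Tgtp1, Gm12185, Gm4951 and BC023105, of the 19324 symbols in the array's annotation. Every probe set whose annotation held one of these symbols was used, which gave 10 probe sets among the 45037 fitted. Of these, 9 carried a member symbol alone. Tgtp1 had only a probe set that it shares with its near-copy Tgtp2, and Iigp1 had 2 probe sets. The genes were chosen by family and on the difference between the groups seen in these same arrays. The differences below are therefore a description. Calls of them are counted only to show how the counts move with the processing, and nothing is inferred from them.

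RNA came from Ba/F3, an established line of murine pro-B cells that grows only with interleukin-3. The cells carried, by retroviral transduction, a fusion of the scaffold protein SPAG9 and the tyrosine kinase JAK2 whose expression depends on doxycycline. Induced cells were kept with doxycycline at 500 ng/ml and uninduced cells, called mock by the submitters, without it, and RNA was taken after 48 hours from 3 cultures of each, seeded in triplicate. Both groups carry the construct, no group here received doxycycline without the fusion, and the sources used here do not say whether the line is 1 clone.

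IRG proteins are large GTPases that cells make in response to interferon, above all interferon gamma, acting through JAK kinases and STAT factors. They fall into a regulatory subgroup named GMS for an unusual methionine in the nucleotide-binding loop (Irgm1, Irgm2 and Igtp, also called Irgm3) and an effector subgroup named GKS (Iigp1 or Irga6, Ifi47 or Irgd, Tgtp1 and Tgtp2 or Irgb6). Effectors load onto the vacuole around an invading parasite such as Toxoplasma and break it, while the regulators sit on the cell's own membranes and hold effectors inactive there.

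Known interferon-response elements were looked for in the 250 bases before the annotated starts, since STAT dimers bind the gamma-activated site (GAS) and interferon regulatory factors and ISGF3 bind the interferon-stimulated response element (ISRE). RefSeq promoter sequences of GRCm38.p6 were at hand for 6 of the 9 members, all on chromosome 11. The GAS was searched as TTCNNNGAA, which reads the same on both strands, and the ISRE as GAAANNGAAA on both strands. Stretches of 5 members are shown. The same arrangement was found in 4 of the 6 members searched, where GAS letters come first and ISRE letters follow after 2 bases. The bases beside these letters are alike in the 4 as well, so they cannot be counted as independent occurrences. Irgm1 has ISRE letters alone, and Ifi47, not shown, has neither. Capitals mark the letters of either motif, and each stretch is written 5′ to 3′ on its gene's strand. Those of Igtp and Irgm2 lie at chr11:58199492-58199555 and chr11:58214883-58214952 on the plus strand. Those of Irgm1, Gm12185 and Tgtp1 lie at chr11:48871421-48871480, chr11:48927218-48927287 and chr11:48992284-48992353 on the minus strand.
Igtp: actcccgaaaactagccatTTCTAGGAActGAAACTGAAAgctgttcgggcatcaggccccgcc
Irgm2: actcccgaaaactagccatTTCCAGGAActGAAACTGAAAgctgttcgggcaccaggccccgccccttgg
Irgm1: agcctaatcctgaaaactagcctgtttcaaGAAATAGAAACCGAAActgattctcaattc
Gm12185: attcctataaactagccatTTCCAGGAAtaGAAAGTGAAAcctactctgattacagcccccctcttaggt
Tgtp1: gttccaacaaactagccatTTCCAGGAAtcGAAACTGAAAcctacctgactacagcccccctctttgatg

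In Igtp, Irgm2, Gm12185 and Tgtp1 the GAS letters began 45, 75, 86 and 88 bases before the start, and the ISRE letters 34, 64, 75 and 77 bases before it. The 2 ISRE matches of Irgm1 overlapped and began 30 and 24 bases before the start. Ifi47 held neither set of letters in this window. Among 32851 promoters of the same length, 7.02% held GAS letters, 2.98% ISRE letters, 0.332% both, and 0.0944% (31 promoters) both within 10 bases of each other. IRG genes accounted for 6 of those 31: the 4 members named, Tgtp2 (chr11:49064243-49064312, minus strand) and Gm12250, also known as Irgb10 (chr11:58183722-58183836, plus strand). In Gm12250 the arrangement differed, with an ISRE match on the opposite strand on either side of the GAS letters. The stretches of the 4 members and of Tgtp2 are alike beyond the motif letters, so the 6 are not independent occurrences. A match is a description of letters and was not tested as a binding site.

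**Figure D1:**
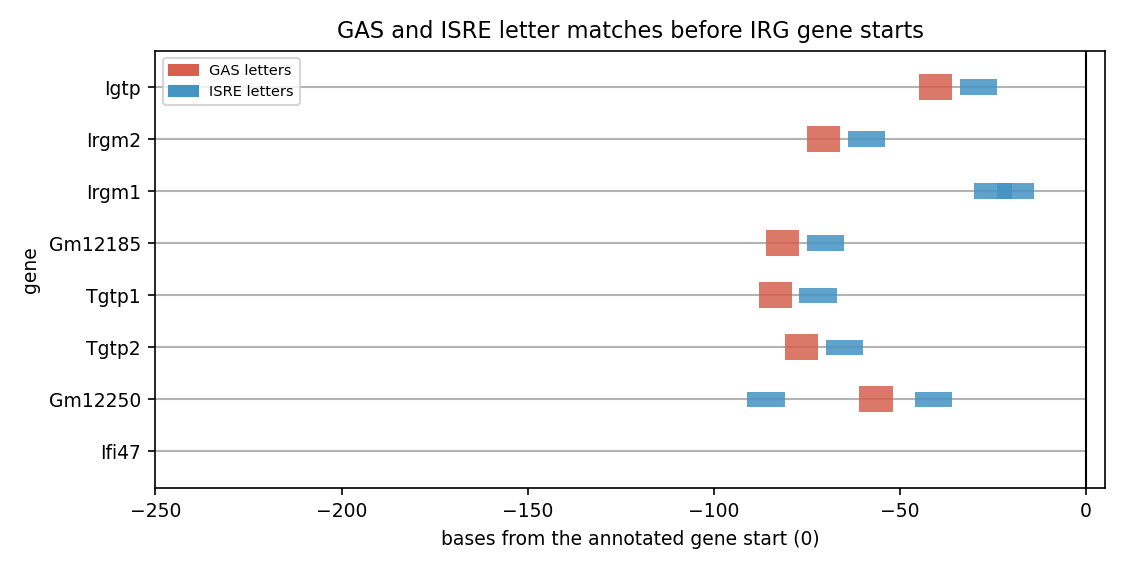
Positions of GAS letters (red) and ISRE letters (blue) in the 250 bases before the annotated start of 8 IRG genes, on an axis of bases from the start. In Igtp, Irgm2, Gm12185, Tgtp1 and Tgtp2 the GAS block is followed at once by the ISRE block, Irgm1 has ISRE blocks alone, and Ifi47 has none.

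The signals are linear intensities scaled to a common mean, with array medians from 46.2 to 63.6. No detection calls came with them, so background was described by 38 genes of liver and brain, whose median on the log2(signal + 16) scale was 5.39 and whose 90th percentile was 6.30, a signal of 63.0. Uninduced replicate 1 stood apart from uninduced replicates 2 and 3, and the IRG differences are given with and without it. Of the 34 cell type markers below, 0 were called in limma with all arrays and 9 had an unadjusted p under 0.05. Without uninduced replicate 1 the macrophage marker Csf1r was called lower (-1.73, adjusted p of 0.0301 in limma; -1.23 with all arrays). Of 14 markers of pro-B and interleukin-3-dependent cells, 4 lay above background on every array (Cd79b, Il3ra, Csf2rb and Csf2rb2) and 7 on none (Cd79a, Ebf1, Rag1, Rag2, Dntt, Il7r and Blnk). Their summed signals ran from 21696 to 35598 on induced and from 15864 to 25721 on uninduced arrays. Of 10 macrophage and monocyte markers, 4 lay above background on every array (Cd68, Adgre1, Csf1r and Fcgr1) and 3 on none (Mrc1, Msr1 and Marco). Their summed signals were lower on induced arrays, at 870 to 962, than on uninduced arrays, at 1903 to 2882. Adgre1 made up the largest part of this, with a mean signal of 256 induced and 1231 uninduced. Mrc1 alone had a positive difference (0.85). The background genes also summed lower on induced arrays, at 1701 to 2026 against 2112 to 2465. Of 10 T and NK cell markers 1 (Nkg7) lay above background on every array and 6 on none, with sums from 447 to 1232 and from 446 to 782. The part of these markers in the results was not tested. In RNA of whole cultures, a change in the share of cells expressing a gene and a change of RNA per cell cannot be told apart.

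Every one of the 10 IRG probe sets was higher on all 3 induced arrays than on any uninduced array. The differences of log2(signal + 16) ran from 2.94 for Gm12185 to 7.54 for one probe set of Iigp1, with a median of 4.52 against a median of -0.03 over all probe sets. Non-overlap of that direction was found for 9.35% of all probe sets. By size, all 10 were among the 44 largest increases of the 45037 probe sets, and an Iigp1 probe set was the largest. The median IRG level by array was 12.39, 12.99 and 12.76 in induced replicates 1, 2 and 3, and 8.81, 7.28 and 7.64 in uninduced replicates 1, 2 and 3. Because the genes were chosen on this contrast, nothing is read from these figures beyond their size.

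**Figure D2:**
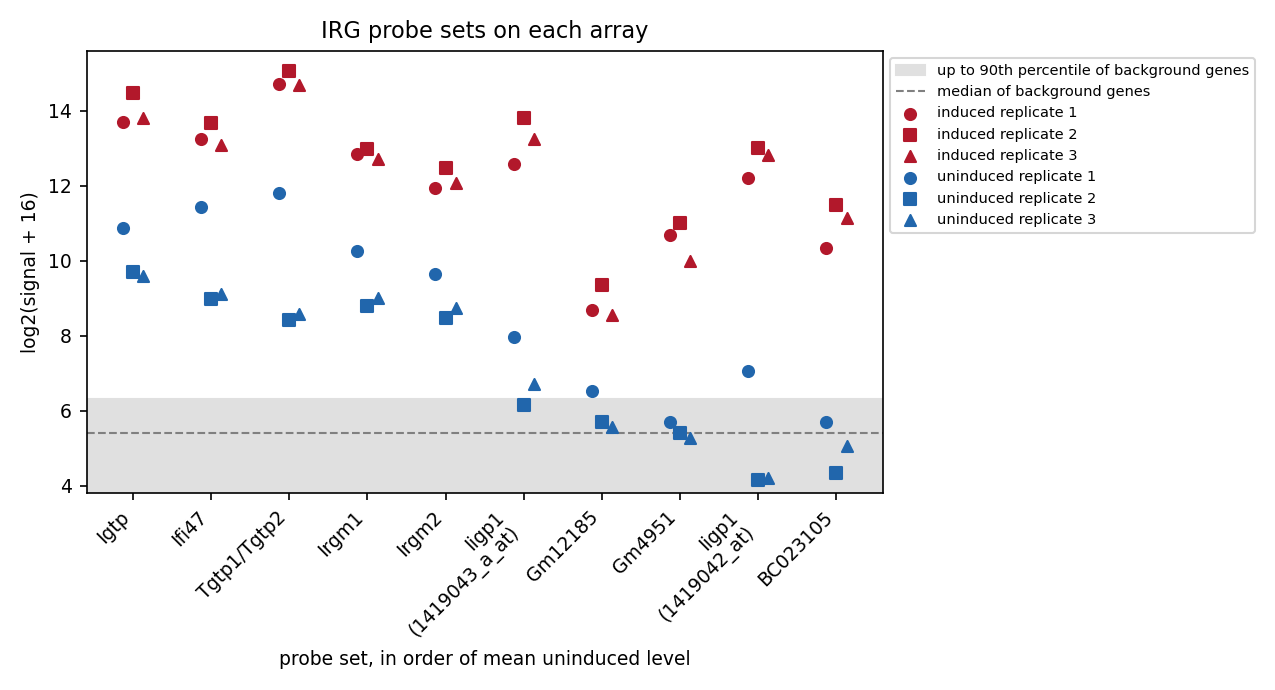
Level on the log2(signal + 16) scale of each IRG probe set (x axis, ordered by mean uninduced level) on the 3 induced (red) and 3 uninduced (blue) arrays; the shape gives the replicate number, the grey band reaches up to the 90th percentile of the background genes and the dashed line is their median. Red and blue do not overlap for any probe set, uninduced replicate 1 is the highest blue point throughout, and the blue points of Gm4951 and BC023105 all lie within the grey band.

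Among the regulators, Igtp, which encodes Irgm3 on the endoplasmic reticulum and lipid droplets, had signals of 13222, 22803 and 14226 in induced replicates 1 to 3 and of 1860, 819 and 755 in uninduced replicates 1 to 3. Its lowest induced array was 7.11-fold above its highest uninduced array. The difference was 3.93 ± 0.40 (SE, limma, here and below), and 4.34 ± 0.29 without uninduced replicate 1. Irgm1, a regulator on the Golgi, lysosomes and mitochondria that is required for resistance to many intracellular pathogens, had signals of 7278, 8038 and 6694 in induced and of 1206, 424 and 502 in uninduced cells. Its induced arrays were the closest together of all members, with an SD of 0.13 (n = 3) on the log2 scale. The Irgm1 difference was 3.49 ± 0.39, and 3.94 ± 0.18 without uninduced replicate 1.

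Irgm2, a regulator found mainly at the Golgi, had signals of 3895, 5698 and 4288 in induced and of 789, 337 and 407 in uninduced cells. The groups were separated by a 4.94-fold gap, and the difference was 3.21 ± 0.35, or 3.57 ± 0.23 without uninduced replicate 1. The 3 regulators differed by 3.21 to 3.93, and on all uninduced arrays they lay above the 90th percentile of the background genes. The size of their difference moved little with the pseudocount, and for Irgm2 it was 3.26 with a pseudocount of 1 and 3.09 with one of 64.

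Of the effectors, Tgtp1/Tgtp2 (a shared probe set, so that the near-copies cannot be told apart) had the highest induced signals of the family, 26785, 34033 and 26421. The median percentile of these among all probe sets was 99.6, and the highest signal of an array was 46320 to 56510. Uninduced cells gave 3562, 323 and 363, the widest spread of any member on the log2 scale, and replicate 1 was 10.4-fold above the mean of the other 2. The difference was 5.23 ± 0.88 with all arrays and 6.33 ± 0.19 without uninduced replicate 1. Ifi47, which encodes Irgd, behaved alike in that respect, with 9727, 12971 and 8661 in induced and 2763, 487 and 533 in uninduced cells. It had the smallest gap of the family, 3.13-fold between its lowest induced and highest uninduced array. Its difference was 3.49 ± 0.66, and 4.29 ± 0.23 without uninduced replicate 1.

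Iigp1 encodes Irga6, the best-studied effector, whose assembly on the vacuole of Toxoplasma is a standard readout of the system. The probe set 1419043_a_at gave 6091, 14290 and 9654 in induced and 235, 54.9 and 89.4 in uninduced cells, a difference of 6.26 ± 0.53. The probe set 1419042_at gave 4703, 8257 and 7197 in induced and 116, 1.85 and 2.49 in uninduced cells, a difference of 7.54 ± 0.78. Both placed Iigp1 far higher in induced cells, and they parted in the uninduced arrays, where the second was near 0 on replicates 2 and 3. Its size there depends on the pseudocount: it was 9.28 with a pseudocount of 1 and 6.16 with one of 64, against 6.47 and 5.75 for the first. Without uninduced replicate 1 they stood at 6.77 ± 0.41 and 8.49 ± 0.28.

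The remaining members are less studied. Gm4951 is listed in RefSeq under the further name Ifgga2, of the same subfamily as Iigp1 (Ifgga1). Its signals were 1642, 2032 and 1007 in induced and 36.0, 26.0 and 22.5 in uninduced cells. The uninduced arrays lay close together and within background, and here uninduced replicate 1 changed little: the difference was 5.11 ± 0.30 with it and 5.24 ± 0.33 without it. BC023105, annotated as a pseudogene beside Iigp1, gave 1267, 2873 and 2233 in induced and 36.1, 4.15 and 17.1 in uninduced cells, a difference of 5.96 ± 0.44 (6.30 ± 0.42 without uninduced replicate 1). For these members at background the difference is less certain in size than in direction. A pseudocount of 1 gave 7.06 for BC023105 and 5.71 for Gm4951, and one of 64 gave 4.66 and 4.09. Gm12185, with the further name Irgb2b1, was the dimmest member in induced cells, with 396, 637 and 359, against 75.1, 35.9 and 30.9 in uninduced cells. It had the smallest difference of the family, 2.94 ± 0.34 (3.24 ± 0.29 without uninduced replicate 1), and with a pseudocount of 64 it was 2.23.

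Ordered by mean uninduced level on the log2(signal + 16) scale, the probe sets ran Igtp (10.06 ± 0.71, SD, n = 3), Ifi47 (9.84 ± 1.39), Tgtp1/Tgtp2 (9.59 ± 1.92), Irgm1 (9.35 ± 0.79), Irgm2 (8.95 ± 0.62), Iigp1 by 1419043_a_at (6.95 ± 0.93), Gm12185 (5.92 ± 0.52), Gm4951 (5.45 ± 0.22), Iigp1 by 1419042_at (5.14 ± 1.65) and BC023105 (5.03 ± 0.69). This is an order of probe set signals and not of RNA amounts, because probe sets bind with different strength. Only the step from Irgm2 down to Iigp1, of 2.0, separated neighbours whose 3 uninduced values did not overlap. The first 5 were above background on all 3 uninduced arrays, 1419043_a_at on 2, Gm12185 and 1419042_at on 1 (replicate 1), and Gm4951 and BC023105 on none.

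In induced cells the order was another, led by Tgtp1/Tgtp2 (14.82 ± 0.21), Igtp (13.99 ± 0.43) and Ifi47 (13.33 ± 0.30). The 2 probe sets of Iigp1 came next to Irgm1 (13.21 ± 0.61 and 12.68 ± 0.42, against 12.84 ± 0.13), and their ranges overlapped with it. BC023105 (10.99 ± 0.60), Gm4951 (10.56 ± 0.51) and Gm12185 (8.86 ± 0.43) closed the list.

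The array number went with the size of the difference. Between the arrays numbered 1 the median difference over the 10 probe sets was 2.86 (1.81 to 5.16), and between those numbered 2 and 3 it was 4.83 (3.33 to 8.73). All 10 probe sets had their highest uninduced level in replicate 1, as had 48.8% of all probe sets. It exceeded the mean of uninduced replicates 2 and 3 by a median of 1.29 (0.37 for Gm4951 to 3.32 for Tgtp1/Tgtp2). The median over all probe sets was 0.12. Over the probe sets whose mean uninduced level was above background, the median was 0.07 and the 95th percentile 1.05. Gm12185, Gm4951, 1419042_at and BC023105 would not belong to that set. Induced replicate 2 was the highest induced array for all 10, against 29.4% of all probe sets. What set these cultures apart was not tested.

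**Figure D3:**
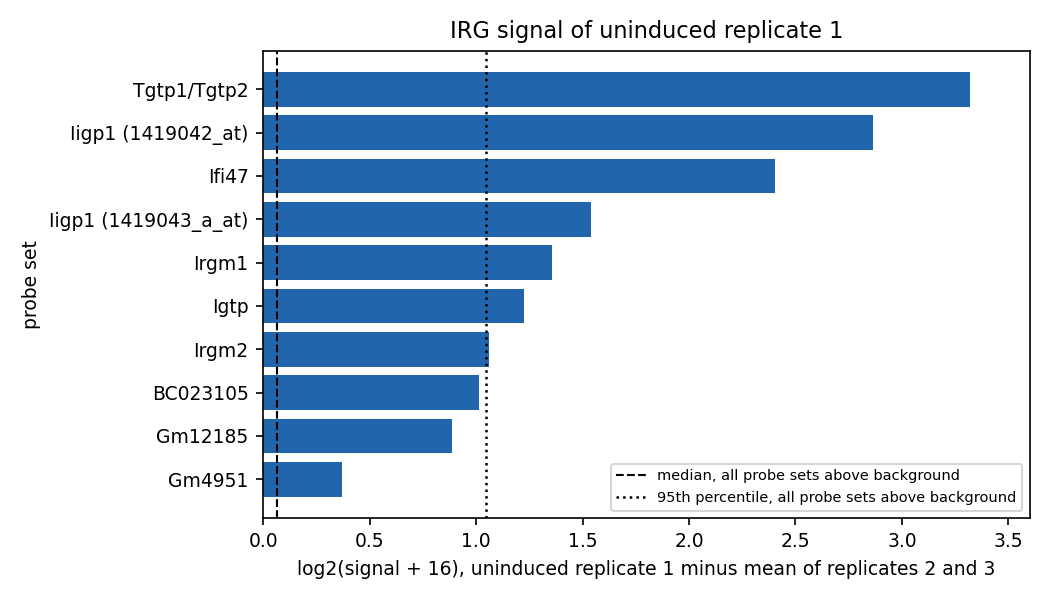
Bars give, for each IRG probe set, the level of uninduced replicate 1 minus the mean of uninduced replicates 2 and 3 on the log2(signal + 16) scale; the dashed and dotted lines are the median (0.07) and the 95th percentile (1.05) of the same quantity over all probe sets above background. Tgtp1/Tgtp2, Iigp1 by 1419042_at and Ifi47 reach beyond 2, and Gm4951 is the smallest at 0.37. Above background means a mean uninduced level over 6.30, which not all IRG probe sets reach.

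**Figure D4:**
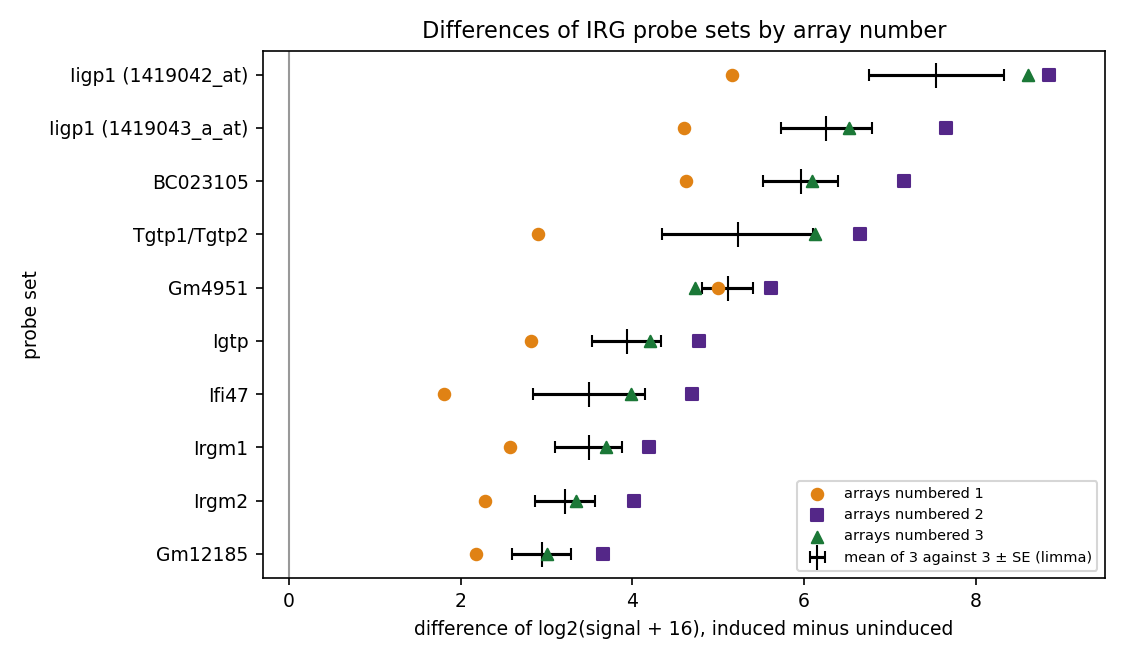
Difference of log2(signal + 16), induced minus uninduced, for each IRG probe set between arrays of the same number (orange circles 1, purple squares 2, green triangles 3), with the mean of 3 against 3 and its SE in black. All points lie above 0, and the arrays numbered 1 give the smallest difference for every probe set but Gm4951.

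In limma's fit over all probe sets (Benjamini-Hochberg adjustment, threshold of 0.05), 3 of the 10 IRG probe sets were called higher, namely 1419043_a_at of Iigp1, BC023105 and Gm4951, beside 0.02% of all probe sets called higher and 0.0178% called lower. The count moved with single arrays and settings. Without uninduced replicate 1 all 10 were called, beside 1.2% of all probe sets. Without any one of the other 5 arrays 0 were called, although all 10 then had an unadjusted p under 0.05 in limma. Over all probe sets 9 were called higher without induced replicate 1, and 0 without any one of the remaining arrays. With the replicate number as a block 0 were called, beside 0% of all probe sets, again with 10 at an unadjusted p under 0.05. With 1 probe set per gene 7 of the 8 members with a probe set of their own were called, beside 0.115% of genes, and the exception was Ifi47. Median centring, a pseudocount of 64, the filter at the median, and trended and robust variance each gave 8 of the 10. Over all probe sets fitted these settings called 25, 67, 80 and 255 higher. Quantile normalization gave 3 of the 10, beside 10 over all. A pseudocount of 1 gave 0 of the 10, and 0 over all. These counts describe the members and are no support for their choice.

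The members were not chosen by position, but the differences compared here are values that the choice used. The 6 chromosome 11 probe sets (Irgm1, Gm12185, Tgtp1/Tgtp2 and Ifi47 in one stretch, Igtp and Irgm2 in another) differed by 2.94 to 5.23, and the 4 chromosome 18 probe sets (Iigp1, Gm4951 and BC023105) by 5.11 to 7.54. The 2 ranges overlapped only through Tgtp1/Tgtp2, whose difference lay above that of Gm4951. Without uninduced replicate 1 they were 3.24 to 6.33 and 5.24 to 8.49, and Tgtp1/Tgtp2 then lay above BC023105 as well. The chromosome 18 probe sets were also dimmer in uninduced cells (5.03 to 6.95, against 5.92 to 10.06), and the difference between the positions was not tested. Of the genes flanking the 3 stretches, the 3 nearest measured ones on either side of each were taken by position alone, 18 in all. In limma 0 of these 18 were called, 4 had an unadjusted p under 0.05, 3 had all induced above all uninduced arrays and 5 had all below, beside 10.7% and 13.4% of all genes. Gemin5 was called higher without uninduced replicate 1 (0.99, adjusted p of 0.0493 in limma), beside 1.2% of all probe sets. Their differences ran from -1.0 for 4930438A08Rik to 0.81 for Gemin5, with a median of -0.25. Non-IRG genes lying between the members, Psme2b among them, were not analysed here.

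IRG relatives outside the interferon-inducible clusters were measured by 3 probe sets, all on genes of chromosome 7. Irgq, a quasi-GTPase of the family, stood at -0.18 ± 0.26 by its brighter probe set (7.92 ± 0.45 induced and 8.11 ± 0.09 uninduced, SD, n = 3) and at -0.05 ± 0.32 by one at background. Irgc1, the testis-expressed relative, stood at -0.03 ± 0.45 and lay within background in both groups (5.10 and 5.13). None of the 3 was called, and their groups overlapped. The values without uninduced replicate 1 were -0.22 and -0.27 for Irgq and 0.19 for Irgc1. The other IRG symbols searched, Gm12250 and Tgtp2 among them, had no probe set of their own in the annotation used and were not analysed here.

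Other interferon-inducible GTPases, the guanylate-binding proteins that act with IRG proteins on pathogen vacuoles and the Mx proteins, had positive differences in all 8 measured genes. Of these, 2 rose in limma's fit over all probe sets, Gbp2 by 6.61 ± 0.51 and Gbp3 by 4.87 ± 0.43 (adjusted p of 0.0431 for both), and 0 fell. Of all probe sets 0.02% rose and 0.0178% fell. In 7 of the 8 genes all induced arrays were above all uninduced arrays, beside 10.7% of all genes (1 probe set per gene). Mx2 was among these 7, with a difference of 0.55 ± 0.21, although it lay within background on every array. Mx1 was the exception, at 2.34 ± 0.98 with overlapping groups. Its difference was -0.55 between the arrays of number 1 and 3.79 between the others. Gbp2b stood at 6.15 ± 0.79 and Gbp7 at 2.62 ± 0.27. The median over the 8 was 3.68, which was 1.54 between the arrays of number 1 and 5.01 between the others. With the replicate block 0 were called (all probe sets: smallest adjusted p of 0.291 in limma). Without uninduced replicate 1 the guanylate-binding genes Gbp2, Gbp2b, Gbp3, Gbp6 and Gbp7 rose (5 of 8), beside 1.2% of all probe sets.

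The list of interferon signalling to IRG genes had 15 measured genes, feedback inhibitors such as Socs1 among them. None was called in limma over all probe sets, and 6 had an unadjusted p under 0.05. Their median was -0.08. All induced arrays were above all uninduced arrays for 5 genes and below them for 2, beside 10.7% and 13.4% of all genes. Irf1, a transcription factor that binds the ISRE and is required for full IRG induction, stood at 2.28 ± 0.23 (adjusted p of 0.0569 in limma, and 0.0396 with 1 probe set per gene). Socs1, which inhibits JAK kinases in a feedback loop, stood at 1.39 ± 0.22. Usp18 had the largest difference of the list, 3.28 ± 0.74 (adjusted p of 0.177 in limma). The ISGF3 subunits Stat2 and Irf9 stood at 1.42 ± 0.25 and 1.04 ± 0.19. Irf8, a myeloid and B cell factor, was within background (5.42 induced and 5.58 uninduced), and Jak2 stood at -0.55 ± 0.42. The Jak2 value turned on the array number: it was 0.28 between the arrays of number 1 and -0.96 between the others, and -1.03 without uninduced replicate 1. The sources used here do not say whether the Jak2 probe set reads the fusion transcript. Ifngr1 and Ifngr2, the chains of the interferon gamma receptor, stood at 0.21 ± 0.55 and -0.08 ± 0.17, and at -0.32 and -0.10 without uninduced replicate 1. Those of the type I interferon receptor were the 2 with all induced below all uninduced arrays, Ifnar2 at -0.96 ± 0.29 (adjusted p of 0.247 in limma) and Ifnar1 at -0.23 ± 0.18. Without uninduced replicate 1 the genes Irf1, Irf9, Socs1 and Usp18 rose (4 of 15), beside 1.2% of all probe sets.

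Loading of IRG effectors onto vacuoles needs the LC3 and GABARAP conjugation enzymes, the Atg5, Atg7, Atg3 and Atg16l1 proteins among them. None of the 11 measured genes of this list was called in limma (0 of 11, with 1 at an unadjusted p under 0.05), and their median was -0.07. Map1lc3b, an LC3 gene, stood at -0.55 ± 0.20, Atg12 at -0.91 ± 0.39, Gabarap at -0.39 ± 0.21 and Atg3 at 0.33 ± 0.19. All induced arrays were above the uninduced ones for 1 gene of the list (Atg5) and below them for 2 (Atg7 and Map1lc3b), beside 10.7% and 13.4% of all genes. The list of ubiquitin tagging at vacuoles had 6 measured genes, with adaptors that bind ubiquitin among them. Of these 6, 0 were called and 3 had an unadjusted p under 0.05 in limma. All induced arrays were above the uninduced ones for 1 gene (Trim21) and below them for 3 (Sqstm1, Nbr1 and Calcoco1). Of all genes 10.7% were above and 13.4% below. Trim21, a ubiquitin ligase and antibody receptor that interferon induces, stood at 1.5 ± 0.21. It was the 1 of the 6 that rose without uninduced replicate 1, beside 1.2% of all probe sets. The ubiquitin-binding adaptor Sqstm1 stood at -0.75 ± 0.24, Calcoco1 at -0.77 ± 0.21 and Traf6 at -0.46 ± 0.25.

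**Figure D5:**
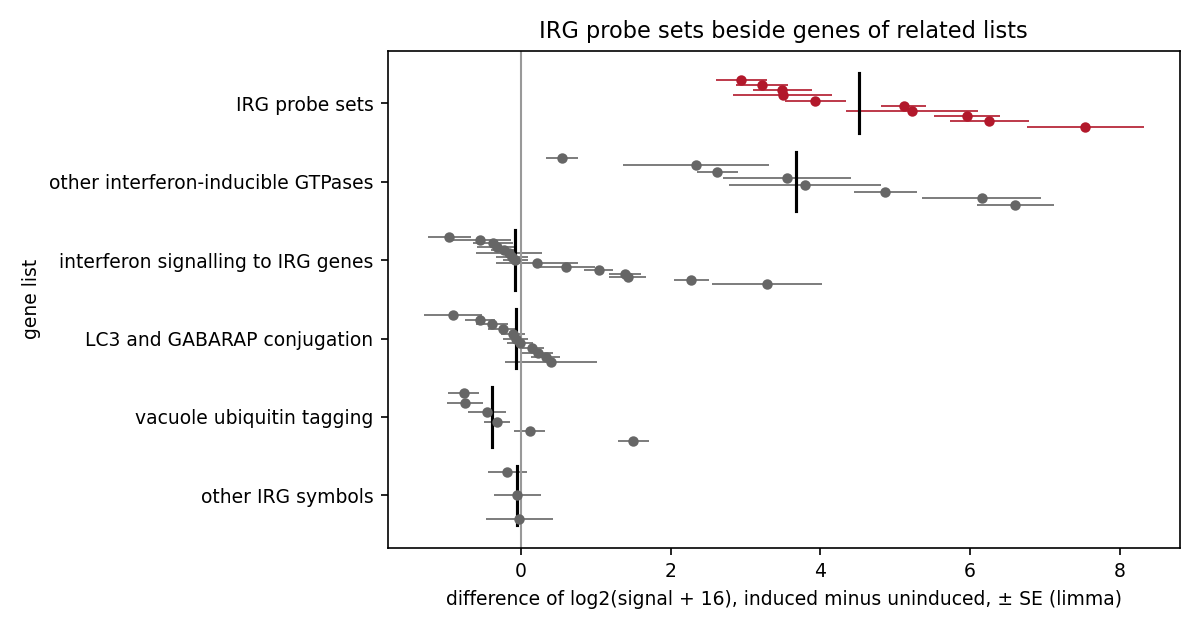
Difference of log2(signal + 16), induced minus uninduced, with its SE from limma for the 10 IRG probe sets (red) and for the measured genes of the related lists and other IRG symbols (grey), with each list's median as a black bar. The IRG probe sets (median 4.52) and the other interferon-inducible GTPases (3.68) lie to the right of 0, while the medians of the other lists lie between -0.39 and -0.05.

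The genes most like the IRG family over the 6 arrays were sought among 11797 genes above background on some array, by the root mean square distance between each gene's levels above its uninduced mean and the mean of the 9 unshared IRG probe sets. The nearest, with their distance on the log2 scale, were Oasl2 (0.20), an oligoadenylate synthetase-like gene, Gbp3 (0.25), Il18bp (0.52), which encodes a secreted inhibitor of interleukin-18, and Zbp1 (0.69), whose protein detects nucleic acids in the Z conformation. Ifit1 (0.75), Rtp4 (0.83), Ifit1bl1 (0.90) and Dhx58 (0.97), which encodes the RNA helicase LGP2, followed. For comparison, the member probe sets themselves lay at 0.53 (Igtp) to 2.10 (Iigp1 by 1419042_at) from the same mean. Oasl2, Gbp3 and Il18bp lay nearer to the family's mean than any member did, but they were picked as the nearest of 11797 genes. The distance also counts the size of the difference, on which the members were chosen and which ran from 2.94 to 7.54 over them. It therefore does not show that these genes follow the family better than its members do. The mean profile stood at 4.39, 5.07 and 4.53 in induced replicates 1 to 3, and at 0.94, -0.56 and -0.38 in uninduced replicates 1 to 3. All 6 arrays share the 2 groups and the high uninduced replicate 1, so these distances describe likeness in this experiment alone.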

How the data were processed

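RNA of 6 Ba/F3 cultures was measured on Affymetrix mouse 3′ arrays, 3 induced and 3 uninduced, and titles in the labels gave group and replicate number. The values deposited by the authors are linear signal intensities, made with Affymetrix Expression Console 1.4.1 per the submitters' processing notes; how probes were summarised was not given in the sources used here. On each array the mean trimmed by 2% at each end was 500. Scaling of this kind makes arrays comparable only where most genes do not change. The labels name no separate experiments, so p-values measure only how these cultures vary, which may be technical, and 6 arrays limit the precision.

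After removal of 64 control probe sets, 45037 remained, of which the platform annotation gave 34945 exactly 1 symbol, 932 several and 9160 none. With log2(signal + 16), limma 3.58.1 in R 4.3.3 compared the groups over all 45037 probe sets (two-sided, with 4 residual degrees of freedom; p-values were adjusted over all by Benjamini-Hochberg, with a threshold of 0.05). The SE is limma's moderated one. Genes of other lists are given by their brightest probe set with a single symbol. Deviations from the group means of same-numbered arrays correlated at 0.29, 0.17 and 0.17, over probe sets at or above the median level (-0.25 to 0.17 for arrays of unlike number). Induced replicate 3 with uninduced replicate 2 also reached 0.17, so it is unsure whether the numbers mark pairs. A fit with the number as a block was run as an alternative. SEs and p-values of single genes come from fits without the block. Python 3.11.15 searched the promoters and matplotlib 3.10.9 drew the figures.

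The members, the related lists and the motif search were chosen with earlier results of these data known. Named genes were every member probe set, the other measured IRG symbols, of each related list up to 4 genes with the smallest p together with Irf1, Irf8, Irf9 and Jak2, and the 8 genes most like the family; the receptor chains, the genes named for their count without uninduced replicate 1, Atg5, Atg7 and the named chromosomal neighbours were added after their values were seen. Mx1, Mx2 and Nbr1 were added in the same way. The fit was tested on simulated data with known changes. It called 4% of log2 changes of 1, 60.4% of those of 2, 85.6% of 3 and 91.2% of 4. Of its calls 3.52% were false. The simulated noise was independent between probe sets and so lacked a shift shared by an array, such as uninduced replicate 1 shows. No protein sequences were used here. Alternatives were the replicate block, median centring, quantile normalization, pseudocounts of 1 and 64, a filter at the median, trended and robust variance, 1 probe set per gene or member, unshared probe sets alone, and leaving out each array; leaving out both replicate 1 arrays was added after seeing the data.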

Additional observations from a re-analysis of the deposited data

How the results depend on the processing

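All 130 differences of single IRG probe sets recomputed under the alternatives that could give them were positive. They ran from 2.23 (Gm12185, pseudocount of 64) to 9.28 (Iigp1 by 1419042_at, pseudocount of 1). Their sign is no evidence of stability, because every induced array lay above every uninduced one for these probe sets. Leaving out arrays, the block, the pseudocounts and the filter could therefore not turn a sign. Only median centring and quantile normalization could have done so. The median over the IRG probe sets, 4.52, stayed between 3.93 and 4.83, with 4.2 to 4.79 when 1 array was left out. The replicate block left the differences as they were and changed the calls alone.

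Counts of calls in limma were far less stable. Of all probe sets 17 were called (9 higher). The count was 0 with the replicate block (6401 at an unadjusted p under 0.05), 0 with a pseudocount of 1 (5364 unadjusted) and 0 without both replicate 1 arrays (11167 unadjusted), which was chosen after seeing the data. It was 30 with median centring, where 83.3% were higher in place of 52.9%, 34 with 1 probe set per gene, 136 with a pseudocount of 64, 171 with the filter at the median and 541 with trended and robust variance. Leaving out 1 array gave 0 to 1374: 1374 without uninduced replicate 1, 11 without induced replicate 1 and 0 without any one of the others (4137 to 4512 unadjusted). Of the 40 related genes 2 were called. This became 0 with the replicate block (17 unadjusted), 0 with a pseudocount of 1 (16 unadjusted), 0 without both replicate 1 arrays (24 unadjusted), 4 with median centring, 4 with 1 probe set per gene, 6 with a pseudocount of 64, 7 with the filter and 9 with trended and robust variance, and 0 to 10 when 1 array was left out (10 without uninduced replicate 1, and 0 without any other, with 15 or 16 unadjusted). The cause was not tested. Background limits the size of the difference for Gm4951, BC023105, Gm12185 and 1419042_at.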

Other observations

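The pairing of GAS and ISRE letters within 10 bases was also looked up outside the IRG genes, a description made after the data were seen. Of 24 such genes 12 were measured, and they ranged from 1.23 ± 0.23 for Bst2, an antiviral membrane protein (tetherin), and 1.09 ± 0.22 for Parp11 to -0.88 ± 0.37 for Ncf1 and -1.13 ± 0.22 for Serpinb6a, with a median of 0.11. In 2 of the 12 all induced arrays were above all uninduced arrays and in 1 they were below. In limma 0 of 12 were called, and 3 had an unadjusted p under 0.05. All induced arrays were above all uninduced arrays for 81 of 449 measured genes outside the family with ISRE letters (18%), for 130 of 1070 (12.1%) with GAS letters, and for 1464 of 13382 (10.9%) with neither. They were all below for 61, 146 and 1839 of the same genes.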
